A study of Daphnia magna with 45 samples.

Results

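The 150 transcript IDs described here were chosen by their measured levels in unexposed Daphnia magna: they were low at 3 and 6 h of the experiment and higher at 1 and 24 h. For each ID, a score was taken as the lower of the control group means at 1 and 24 h minus the higher of the control group means at 3 and 6 h, on the scale log2(CPM + 1). CPM is the number of reads of an ID after each library total is set to 1000000. Of the 19159 IDs in the deposited table, 13400 had a mean of at least 5 CPM over all libraries, 932 of these had a score above 0, and the 150 highest scores were kept. The control values at 1, 3, 6 and 24 h are therefore a description, and all tests below compare exposed libraries only. Control libraries enter these tests through the estimate of spread that all groups share. All 150 members also passed a filter of at least 1 CPM in at least 3 libraries, as did every row of the table.

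The libraries were made from whole bodies of female animals of the strain Xinb3, a freshwater crustacean, aged 5 days when exposure began. Animals were held in groups of 20 in 35 mL of solution. The groups were propranolol at 4 mg/L (1, 6 and 24 h), isoprenaline at 100 mg/L (1 and 6 h), both compounds together, the propranolol at 1 mg/L with the isoprenaline at 100 mg/L, called the mixture (1 and 6 h), propranolol at 1 mg/L (1, 3, 6 and 24 h), and an unexposed control (0, 1, 3, 6 and 24 h). Each of these 16 groups had 3 libraries, except propranolol 4 mg/L at 6 h, with 2, and the control at 0 h, with 1. The hours are those of the library titles. The series' own description of the harvest gives 1, 6 and 24 h and leaves out 0 and 3 h. No label says that replicates came from separate cultures, or how many animals a library holds, so the p-values below measure no more than how far these libraries lie apart, and that spread may be technical.

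Propranolol blocks beta-adrenergic receptors, which isoprenaline, also called isoproterenol, activates. In vertebrates these receptors carry the signal of adrenaline and noradrenaline to the heart, where activation raises and blockade lowers the rate and force of the beat. Arthropods make little use of adrenaline and noradrenaline, and octopamine and tyramine fill much of that role. The transparent body of Daphnia lets its heart be watched directly, and the series was set up to follow heart rate and gene expression over a day of exposure. None of the 19159 IDs matched the reference gene table (0 of its 28335 genes), so the members are given by their IDs, without gene names, roles or sequences. No cell type could be checked by its markers for the same reason. In whole bodies, fewer cells of a type and less RNA per cell cannot be told apart.

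Library totals ran from 13.5 to 43.7 M reads, with a median of 19.1 M. By the correlation of log2(CPM + 1) over the 13400 IDs (genes are not independent replicates), only 5 of 45 libraries lay nearest to a library of their own group. The library labelled propranolol 4 mg/L at 24 h replicate 1 had r = 0.992 with isoprenaline at 1 h replicate 2, against at most 0.707 with its own group. That isoprenaline library had at most 0.718 with its own group. The best value within the own group was also low for propranolol 4 mg/L at 1 h replicate 2 (0.747), for both libraries of propranolol 4 mg/L at 6 h (0.730 with each other), and for propranolol 1 mg/L at 3 h replicate 2 (0.738), 6 h replicate 1 (0.751) and 1 h replicate 1 (0.804). The counts and medians that rest most on these libraries are also given without them.

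The scores of the members ran from 0.54 to 2.1, with a median of 0.78. The last 3 kept scored 0.547, 0.546 and 0.545, and the first 3 left out scored 0.541, 0.541 and 0.540, so the border cuts through a continuous range. Mean levels of the members over all libraries ran from 5.05 to 415.4 CPM with a median of 20.0 CPM, close to the median of 24.1 CPM of all 13400 IDs. Membership depended on single control libraries. With 1 of the 12 control libraries from 1 to 24 h left out, the 150 highest scores shared between 105 (without 3 h replicate 1) and 145 IDs with the members, while 146 to 150 of the members kept a score above 0.

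In the control, the summed level of the members was 5791 ± 1285 CPM at 1 h, 3176 ± 988 CPM at 3 h, 2952 ± 1688 CPM at 6 h and 11552 ± 5754 CPM at 24 h (SD, n = 3 each). The 3 libraries at 1 h summed to 4681, 7199 and 5492 CPM, those at 3 h to 2039, 3824 and 3665 CPM, those at 6 h to 2489, 4823 and 1543 CPM, and those at 24 h to 9983, 6746 and 17929 CPM. The 6 h libraries spread more than the 3 h libraries, and replicate 2 at 6 h lay above the lowest library at 1 h. Low hours and high hours were not equal among themselves. The 6 h mean lay below the 3 h mean in 108 of 150 members, with a median difference of -0.23 on the log2 scale, and the 24 h mean lay above the 1 h mean in 138, with a median difference of 0.90. The rule asked for neither of these orders. Replicate 3 at 24 h was the highest of all 45 libraries for 82 members.

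The single control library at 0 h was low for most members. Its members summed to 1429.7 CPM, from 28597 reads, or 0.143% of its reads (exact 95% binomial interval 0.141% to 0.145%, counting error only). That sum was below every control library from 1 to 24 h, and 27 members were under 1 CPM there. Member by member, 0 h was below all 3 libraries at 1 h for 139 of 150 members, against 34.5% of the 13400 IDs, although the choice of members with high 1 h values bears on this count. It was below all 6 libraries at 3 and 6 h for 71 members, or 47.3%, against 20.9% of the 13400 IDs, and above all 6 for 3 members, or 2.0%, against 38.8%. The median difference of 0 h was -1.93 from 1 h, -1.16 from 3 h, -0.77 from 6 h and -2.81 from 24 h, while the same medians over the 13400 IDs were 0.24, 0.15, 0.18 and 0.22. In these libraries the order over time was thus low at 0 h, higher at 1 h, low at 3 and 6 h and highest at 24 h. With 1 library, the 0 h values have no replicate check. By the correlation of log2(CPM + 1), the 0 h library also stood further from its nearest library than any other library did. Its r with that library, control at 6 h replicate 3, was 0.875. In the scaling by the median log ratio, its log2 factor of 0.326 was the largest of all libraries. The 0 h counts and differences above are given without that scaling.

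**Figure D1:**
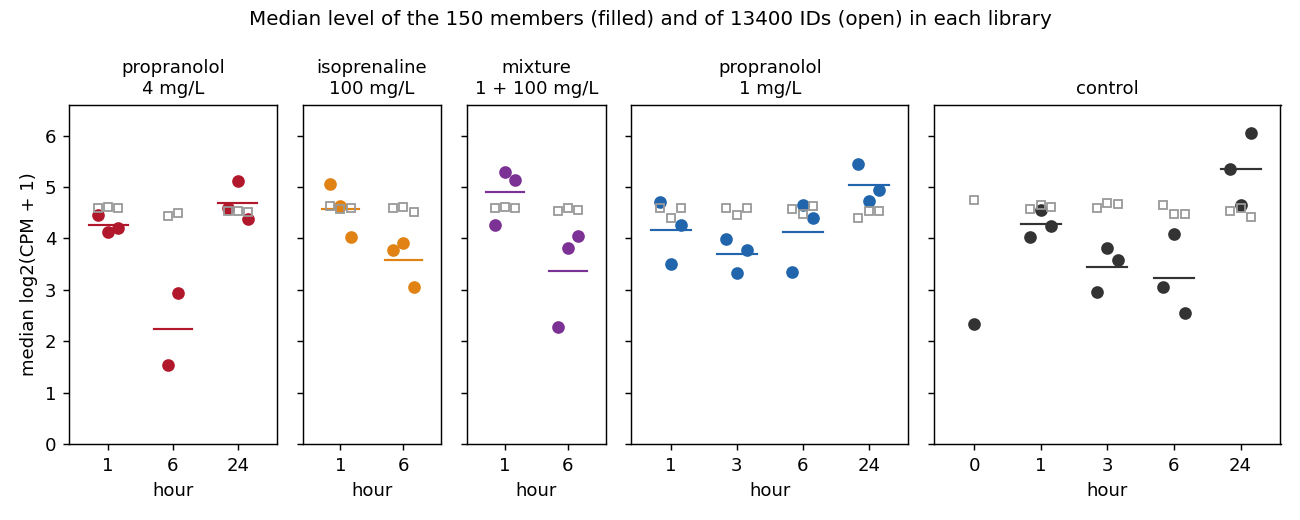
Median log2(CPM + 1) over the 150 members (filled points) in each of 45 libraries, by exposure and hour, with the mean of the libraries of a group as a line; open squares are the median over 13400 IDs. The squares stay between 4.39 and 4.75, while the members run from 1.55 in propranolol 4 mg/L at 6 h replicate 1 to 6.06 in control at 24 h replicate 3.

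Under propranolol 4 mg/L, which has no 3 h libraries, the members were low at 6 h. Their sums were 6147, 6127 and 5556 CPM at 1 h, 889 and 2807 CPM at 6 h, and 10781, 10656 and 5734 CPM at 24 h. Both 6 h libraries were below all 6 others, and replicate 1 held the lowest sum of all 45 libraries, with 49 members under 1 CPM against 4 in replicate 2. Against the mean of 1 and 24 h, the 6 h mean was lower in all 150 members, with a median log2 change of -1.79. The median over the 13400 IDs was -0.14, with 69.8% of them lower. With scaling by the median log ratio, that general shift was -0.02 and the members' median -1.71.

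Of the members, 37 fell in the limma test of 6 h against 1 and 24 h under propranolol 4 mg/L (adjusted p under 0.05 over all IDs), or 24.7%, and none rose. Over all 19159 IDs, 0.491% fell, so that members made up 39.4% of the 94 falls. Both 6 h libraries were below every 1 and 24 h library for 89 members, against a background of 7.07% of the 13400 IDs. The count leaned on single libraries and on the test. It was 0 without 6 h replicate 1, 51 without 6 h replicate 2, 75 without the 24 h library that resembled isoprenaline at 1 h, 19 without 1 h replicate 1 or 24 h replicate 2, and 20 without 1 h replicate 3. It was also 0 when the spread was taken from these 3 groups alone, and edgeR on the recovered reads called 1 member (110 at an unadjusted p under 0.05, against 128 with limma). Without that 24 h library and 1 h replicate 2 together, 70 members fell with a median change of -2.08, and for 6 h against 1 h alone 4 fell with a median of -1.62.

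Among the falls under propranolol 4 mg/L with no overlap, Dapma7bEVm007125t1 and Dapma7bEVm015333t1 had the largest changes. Dapma7bEVm007125t1 was at 46.5, 74.2 and 56.3 CPM at 1 h, at 0.0514 CPM (1 read) and 4.52 CPM at 6 h, and at 257.5, 49.0 and 40.4 CPM at 24 h. The 6 h libraries lay far below the others, and the highest value came from the 24 h library that resembled isoprenaline at 1 h. Its limma log2 change was -4.84 (SE 1.01, adjusted p 0.0213), and leaving out each library in turn it passed in 7 of 8 fits (adjusted p up to 0.365). Dapma7bEVm015333t1 was at 54.4, 85.1 and 59.9 CPM at 1 h, at 0.154 CPM (3 reads) and 5.27 CPM at 6 h, and at 316.8, 48.8 and 44.3 CPM at 24 h, and changed by -4.84 (SE 1.03, limma adjusted p 0.0227). With edgeR both missed the threshold, at adjusted p of 0.164 and 0.163.

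The fall under propranolol 4 mg/L that edgeR also called was that of Dapma7bEVm009681t1, the ID among those named with the highest level, singled out after its values were seen. It was at 226.3, 205.5 and 215.6 CPM at 1 h, at 89.9 and 94.8 CPM at 6 h, and at 278.1, 362.9 and 267.3 CPM at 24 h. The libraries of each hour lay close together and the hours did not overlap. The limma log2 change of 6 h against 1 and 24 h was -1.45 (SE 0.234, adjusted p 0.00404) and edgeR gave an adjusted p of 0.0364. With each library left out, the limma change stayed between -1.49 and -1.38 and passed in 7 of 8 fits (adjusted p up to 0.194), while with the spread of these 3 groups alone the adjusted p was 0.185. At 0 h, in the control, it was at 87.6 CPM.

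In the mixture, the members summed to 1611, 4265 and 4717 CPM at 6 h, against 6713, 12024 and 9962 CPM at 1 h. All 6 h libraries were below all 1 h libraries, and 6 h replicate 1 had 27 members under 1 CPM. The 6 h mean was below the 1 h mean in 136 of 150 members, with a median log2 change of -1.40 against 0.09 over the 13400 IDs. In the limma test 5 members fell, against 0.167% of all IDs, and 90 were lower and 1 higher at an unadjusted p under 0.05, against 6.13% lower and 10.5% higher of the 13400 IDs. With edgeR 0 members were called, and 84 were lower at an unadjusted p under 0.05. For 78 members every 6 h library was below every 1 h library, or 52.0%, against a background of 15% of the 13400 IDs. The limma count was 0 without 1 h replicate 2 or 3 or 6 h replicate 1 or 2, 23 without 6 h replicate 3, and 0 with the spread of these 2 groups alone.

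The 5 members that fell in the mixture are named here after their values were seen. Dapma7bEVm010021t1 was at 1.34, 3.46 and 16.9 CPM at 6 h, against 49.6, 76.0 and 46.1 CPM at 1 h, which limma gave as a log2 change of -3.31 (SE 0.679, adjusted p 0.0313). Dapma7bEVm027692t1 was at 3.84, 12.3 and 35.4 CPM at 6 h, against 94.6, 143.4 and 101.4 CPM at 1 h, a change of -3.08 (SE 0.655, limma adjusted p 0.0365). In both IDs the groups were apart although 6 h replicate 3 was well above the other 6 h libraries. Dapma7bEVm028473t1 was at 0.0432, 1.40 and 1.60 CPM at 6 h, against 12.2, 23.9 and 17.4 CPM at 1 h, and Dapma7bEVm004086t1 at 2.85, 5.34 and 7.68 CPM at 6 h, against 21.5, 38.9 and 29.0 CPM at 1 h. Their changes were -3.29 and -2.33, each with a limma adjusted p of 0.0436. Dapma7bEVm009681t1 was at 103.8, 128.0 and 188.6 CPM at 6 h, against 233.2, 382.7 and 301.3 CPM at 1 h, a change of -1.14 (SE 0.234, limma adjusted p 0.0313). Dapma7bEVm009681t1, Dapma7bEVm010021t1 and Dapma7bEVm027692t1 fell in both the mixture and propranolol 4 mg/L, which share no library: they are 3 of the 5 falls (60.0%) in the mixture and 3 of the 37 falls (8.11%) under propranolol 4 mg/L. Under propranolol 4 mg/L the call of Dapma7bEVm027692t1 rested on single libraries: it passed in 3 of 8 limma fits with each library left out in turn, and with the replicate number as a block its limma adjusted p was 0.0536. Of the 3, edgeR called Dapma7bEVm009681t1 alone under propranolol 4 mg/L and none in the mixture.

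Under isoprenaline 100 mg/L, the members summed to 3152, 4007 and 2708 CPM at 6 h, against 10013, 10214 and 4510 CPM at 1 h. The groups did not overlap, and 1 h replicate 3 lay nearest to the 6 h libraries. The 6 h mean was lower in 115 of 150 members, with a median log2 change of -0.89 against 0.02 over the 13400 IDs. The limma and edgeR tests called 0 members, as limma did over all IDs (background 0%). At an unadjusted p under 0.05, 56 members were lower and 0 higher with limma, and 55 lower with edgeR, against 4.03% of the 13400 IDs lower with limma. Every 6 h library was below every 1 h library for 55 members, or 36.7%, against a background of 6.1%. Without 1 h replicate 2, the library that resembled propranolol 4 mg/L at 24 h, the median change was -0.77, again with 0 calls.

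Propranolol 1 mg/L is the exposure with the same hours as the control. The members summed to 8120, 3922 and 5602 CPM at 1 h, to 5023, 3585 and 4302 CPM at 3 h, to 3229, 6964 and 6789 CPM at 6 h, and to 11027, 7548 and 8629 CPM at 24 h. The hours from 1 to 6 h overlapped, with replicate 1 low at 6 h and high at 1 h, while every 24 h library but replicate 2 was above all earlier ones. The mean of 3 and 6 h was below the mean of 1 and 24 h in all 150 members, with a median log2 difference of -0.63, an interquartile range of -0.78 to -0.47 and a median of 0.00 over the 13400 IDs. None passed the limma or edgeR test (0 called of 150, background 0%), and 20 were lower at an unadjusted p under 0.05 with limma and 17 with edgeR. Over all 19159 IDs, 1620 had an unadjusted limma p under 0.05 in either direction, and edgeR called 4. Without the 3 propranolol 1 mg/L libraries that stood apart, the median difference was -0.23.

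The full order of the control, both 1 and 24 h above both 3 and 6 h, was present in the group means of propranolol 1 mg/L for 61 members, or 40.7%, against 10.4% of the 13400 IDs. Not a single member had every 3 and 6 h library below every 1 and 24 h library, as 0.00746% of the 13400 IDs did. The lowest hour was 3 h in 96 members, 6 h in 38, 1 h in 14 and 24 h in 2, and 24 h was the highest in 135. Under this exposure 6 h was below 3 h in 48 members, while in the control it was so in 108. The low hour was thus not the same for all members. These are counts of group means, and the difference in their order between exposure and control was not tested.

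Between single hours of propranolol 1 mg/L, 3 h was below 1 h in 109 members, with a median log2 change of -0.40. No member passed (0 called with limma and edgeR, background 0%; at an unadjusted p under 0.05 limma had 0 and edgeR 1), and 30 members had every 3 h library below every 1 h library, against a background of 2.13%. The median was -0.05 without 1 h replicate 1, the largest shift with a library left out. At 6 h against 1 h, 91 members were lower with a median of -0.10 and again 0 calls (background 0%; 0 at an unadjusted p under 0.05 with either tool). That median had no stable sign: it was 0.17 without 1 h replicate 1 and 0.34 without 6 h replicate 1. At 24 h against 6 h, all but 6 members were higher, with a median of 0.85, or 0.43 without 6 h replicate 1. Here 2 members rose in the limma test, against 0.501% of all IDs, 46 were higher at an unadjusted p under 0.05 with either tool, and 60 had every 24 h library above every 6 h library, against a background of 6.19%. With the spread of these 2 groups alone 0 members were called, and with a library left out 0 or 1.

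The 2 members that rose are named after their values were seen. Dapma7bEVm028435t1 was at 59.6, 44.5 and 52.5 CPM at 24 h of propranolol 1 mg/L, against 21.2, 3.39 and 12.5 CPM at 6 h. The 24 h libraries were close together and the 6 h libraries several-fold apart. Its limma log2 change was 2.27 (SE 0.554, adjusted p 0.0255), it missed the edgeR threshold (adjusted p 0.0609), and leaving out each library in turn it passed in 1 of 6 limma fits. Dapma7bEVm007445t1 was at 15.0, 12.5 and 10.4 CPM at 24 h, against 4.26, 5.40 and 3.83 CPM at 6 h, and limma gave a log2 change of 1.31 (SE 0.314, adjusted p 0.0228). It also passed with edgeR (adjusted p 0.0279), and leaving out each library in turn in 2 of 6 limma fits (adjusted p up to 0.0984).

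**Figure D2:**
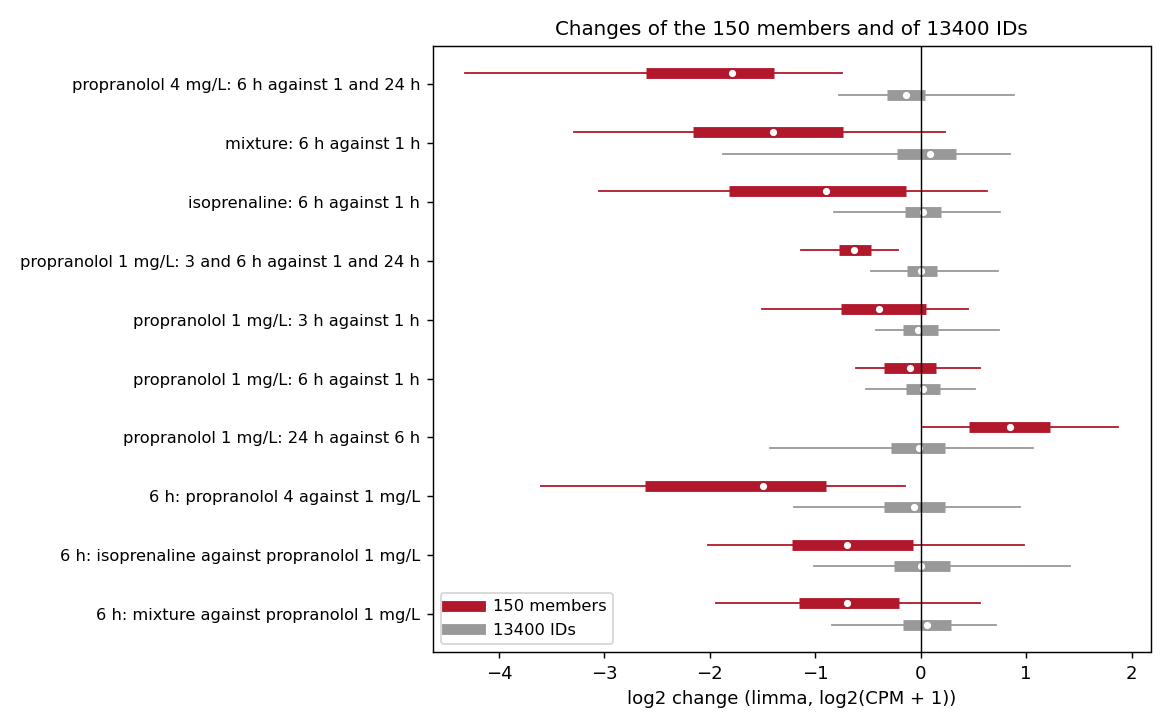
Log2 changes on the log2(CPM + 1) scale for the 150 members (red) and 13400 IDs (grey) in 10 comparisons among exposed libraries; points are medians, thick bars the interquartile range and thin lines the 5th to 95th percentiles. The members' medians lie below 0 in every comparison except 24 h against 6 h of propranolol 1 mg/L, and reach -1.79 in propranolol 4 mg/L at 6 h, while the grey medians lie between -0.14 and 0.09.

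At 6 h the exposures differed in how low the members were. The summed levels were 1848 ± 1356 CPM in propranolol 4 mg/L (SD, n = 2), 3289 ± 660 CPM in isoprenaline, 3531 ± 1678 CPM in the mixture, 5661 ± 2108 CPM in propranolol 1 mg/L and 2952 ± 1688 CPM in control (SD, n = 3 each). Propranolol 4 mg/L was below propranolol 1 mg/L in 144 of 150 members, with a median log2 difference of -1.50 against -0.06 over the 13400 IDs. In the limma test 27 members were lower at 4 than at 1 mg/L, or 18%, where 3.66% of all IDs were lower, and edgeR called 6. Both 4 mg/L libraries were below all 1 mg/L libraries for 74 members, or 49.3%, against a background of 15.8%. The count was 0 without replicate 1 of 4 mg/L, 52 without its replicate 2, 58, 5 and 1 without replicates 1, 2 and 3 of 1 mg/L, and 0 with the spread of these 2 groups alone. Of the 27, 20 were also among the 37 that fell at 6 h of propranolol 4 mg/L, but both comparisons use the same 6 h libraries.

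Dapma7bEVm007125t1 was at 0.0514 and 4.52 CPM at 6 h of propranolol 4 mg/L, against 10.9, 83.4 and 107.5 CPM at 6 h of 1 mg/L, a limma log2 difference of -4.31 (SE 1.13, adjusted p 0.0268; edgeR adjusted p 0.0769). Dapma7bEVm009925t1 was at 0.617 CPM (12 reads) and 5.84 CPM at 4 mg/L, against 6.95, 122.9 and 164.1 CPM at 1 mg/L, a difference of -4.04 (SE 1.11, limma adjusted p 0.0351, edgeR adjusted p 0.0499). In both IDs replicate 1 of 1 mg/L was the low one of its group and still lay above the 4 mg/L libraries. Dapma7bEVm009925t1 also fell at 6 h against 1 and 24 h of propranolol 4 mg/L, by 4.73 on the log2 scale (SE 0.991, limma adjusted p 0.0213), with 76.9, 87.0 and 85.4 CPM at 1 h and 303.4, 60.5 and 42.2 CPM at 24 h.

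The members with the highest scores were low at 6 h of propranolol 4 mg/L as well. Dapma7bEVm006599t1, with the top score of 2.1, was at 0.565 and 1.00 CPM there, against 4.26, 58.0 and 21.0 CPM in propranolol 1 mg/L, a limma log2 difference of -3.42 (SE 0.979, adjusted p 0.0433). Its levels spread widely within groups elsewhere, at 6.00, 38.3 and 19.6 CPM in control at 1 h for instance. Dapma7bEVm015395t1, with a score of 1.48, was at 0.103 CPM (2 reads) and 5.65 CPM in propranolol 4 mg/L, against 9.05, 70.5 and 75.3 CPM in propranolol 1 mg/L, a difference of -3.81 (SE 1.08, limma adjusted p 0.0417). With edgeR the adjusted p was 0.0504 for the first and 0.111 for the second. For both, the 4 mg/L libraries lay below all 1 mg/L libraries, and the call was lost in 4 of 5 and 3 of 5 fits when each library was left out in turn.

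Isoprenaline 100 mg/L and the mixture at 6 h were also set against propranolol 1 mg/L, at doses that differ by compound. In isoprenaline 116 members were lower, with a median log2 difference of -0.69, and in the mixture 124, with a median of -0.70. Neither gave a call among the members in limma or edgeR (0 of 150), while 0.496% and 0.679% of all IDs were lower in limma. At an unadjusted p under 0.05, 21 members were lower in isoprenaline and 15 in the mixture with limma, and 25 and 14 with edgeR. With limma 7.29% and 6.11% of the 13400 IDs were lower at that threshold. Without replicate 1 of propranolol 1 mg/L, limma called 7 members in isoprenaline and 2 in the mixture. For both, the change over time differed by a larger median than the level did. The 6 h against 1 h change of the mixture was below that of propranolol 1 mg/L in 134 members (median -1.43), and that of isoprenaline in 119 (median -0.92). The 6 h low of propranolol 4 mg/L was below the 3 and 6 h low of 1 mg/L in 143 members (median -1.41). Neither limma nor edgeR called a member in any of these 3 tests (0 called, limma background 0% in each); limma had 51, 20 and 63 members lower at an unadjusted p under 0.05, and edgeR 37, 23 and 57. Of the 13400 IDs, 1.46%, 1.15% and 6.57% were lower at that threshold with limma. The median for isoprenaline was -0.83 without its 1 h replicate 2, and with any single library of the groups compared left out the 3 medians kept their sign. Without replicate 2 of propranolol 4 mg/L at 6 h, 4 members were called in the last of them. With all libraries, differences between exposures in the change over time are thus not shown for any single member. All of these comparisons share the propranolol 1 mg/L libraries.

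Against the control of the same hour, which the rule used, the exposures are given as a description only. At 6 h the median member differed from control by -0.62 in propranolol 4 mg/L, 0.37 in isoprenaline, 0.24 in the mixture and 0.86 in propranolol 1 mg/L on the log2 scale. In propranolol 1 mg/L all but 2 members were above control at 6 h. At 1 h the medians were -0.10 in propranolol 4 mg/L, 0.10 in isoprenaline, 0.55 in the mixture and -0.10 in propranolol 1 mg/L. At 3 h the median was 0.40 in propranolol 1 mg/L, and at 24 h it was -0.57 in propranolol 4 mg/L and -0.31 in propranolol 1 mg/L. Members were picked for low control values at 3 and 6 h and high ones at 1 and 24 h, so the signs of these differences are not independent of the choice.

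**Figure D3:**
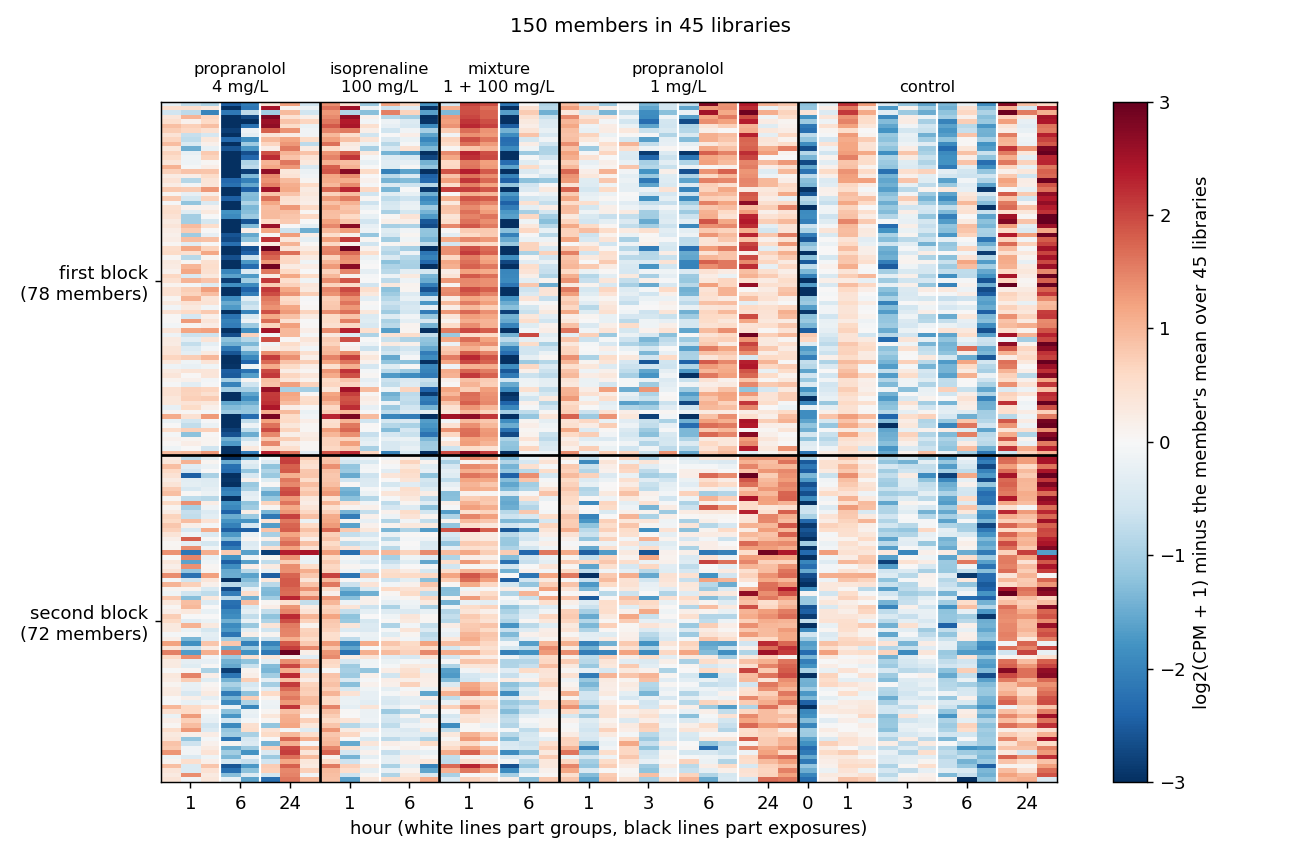
Log2(CPM + 1) of each member minus its mean over 45 libraries (rows, 150 members; columns, libraries by exposure and hour in replicate order; the colour scale ends at a difference of 3). Blue columns stand at 6 h of propranolol 4 mg/L, most deeply in replicate 1, at 6 h of the mixture in replicate 1 and at 0 h, and red columns at 24 h, most of all in control replicate 3.

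The members moved together within groups, beyond the order of hours that chose them. Over the 32 exposed libraries, as deviations from their group means, the median correlation between 2 members was 0.492, against 0.0595 between 2 of the 13400 IDs, and 49.0% of member pairs exceeded 0.5, against 19.5%. These are descriptions over libraries that share cultures, depth and preparation to an unknown degree. The first 2 axes of variation took 49.1% and 26.0% of the members' variance. Grouping the members by these correlations, a division made after the values were seen and not tested, gave a first block of 78 members (median correlation 0.736) and a second block of 72 (0.568), with a median of 0.244 between members of different blocks. The blocks had like levels, with median mean levels of 21.9 and 18.1 CPM.

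The correlation among members did not rest on the libraries that stood apart, but the division into blocks did. Without propranolol 4 mg/L at 24 h replicate 1 and isoprenaline at 1 h replicate 2, the median correlation between members was 0.564, against 0.067 over the 13400 IDs. Between members of different blocks it was then 0.416, and grouping anew gave 122 and 28 members, with 106 of 150 placed as before. With 4 more libraries left out (propranolol 4 mg/L at 1 h replicate 2 and propranolol 1 mg/L at 1 h replicate 1, 3 h replicate 2 and 6 h replicate 1), the median was 0.619, and grouping anew gave 140 and 10 members, with 88 placed as before. The 2 blocks below are thus a description of these 32 libraries and not a stable division of the members.

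**Figure D4:**
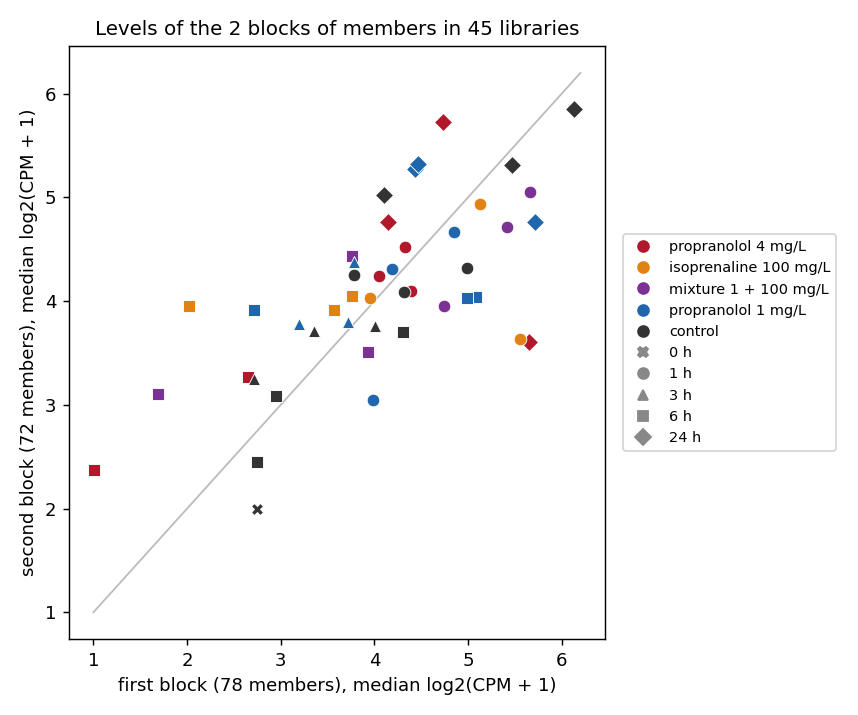
Median log2(CPM + 1) of the 78 members of the first block (x axis) against that of the 72 members of the second block (y axis) in 45 libraries; colour gives the exposure, shape the hour, and the line marks equal levels. Isoprenaline at 1 h replicate 2 and propranolol 4 mg/L at 24 h replicate 1 lie together at the right, at 5.56 and 5.65 on the x axis and 3.63 and 3.61 on the y axis.

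At 6 h the first block was below the second in both libraries of propranolol 4 mg/L, all 3 of isoprenaline and 2 of 3 of the mixture. Its median level was 1.00 and 2.65 in propranolol 4 mg/L, 3.57, 3.76 and 2.02 in isoprenaline, 1.69, 3.94 and 3.76 in the mixture, 2.72, 5.08 and 4.99 in propranolol 1 mg/L, and 2.95, 4.30 and 2.75 in control, on the log2(CPM + 1) scale. The second block was at 2.38 and 3.27 in propranolol 4 mg/L, 3.91, 4.05 and 3.95 in isoprenaline, 3.1, 3.51 and 4.43 in the mixture, 3.91, 4.04 and 4.03 in propranolol 1 mg/L, and 3.08, 3.70 and 2.44 in control. The second block thus hardly varied between isoprenaline and propranolol 1 mg/L, while the first ranged over 3 log2 units within propranolol 1 mg/L and isoprenaline together. Within single groups, replicate 1 of propranolol 1 mg/L and replicate 3 of isoprenaline were low in the first block and unremarkable in the second.

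The changes over time differed in size between the blocks, a difference that was not tested. For 6 h against 1 and 24 h of propranolol 4 mg/L the median log2 change was -2.48 in the first block and -1.49 in the second, with 29 and 8 falls in limma. For 6 h against 1 h it was -2.04 and -0.78 in the mixture and -1.71 and -0.15 in isoprenaline. Without the 2 libraries that resembled each other, these medians were -2.31 and -1.83 in propranolol 4 mg/L and -1.38 and -0.50 in isoprenaline, so the gap between the blocks was smaller. In propranolol 1 mg/L, 3 h against 1 h gave -0.72 in the first block, with 77 of 78 members lower, and 0.06 in the second, with 32 of 72 lower. For 24 h against 6 h of propranolol 1 mg/L the order was the other way, with medians of 0.55 in the first block and 1.23 in the second, which held both rises. The median difference of 6 h from 3 h of propranolol 1 mg/L was 0.67 in the first block and -0.25 in the second. Without the 3 libraries of propranolol 1 mg/L that stood apart, 3 h against 1 h gave -0.28 and 0.33, and 24 h against 6 h gave -0.16 and 1.15, so that for 24 h against 6 h the sign in the first block turned. In the 0 h library the second block stood lower than the first, at 2.00 against 2.75.

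The 24 h libraries of propranolol 4 mg/L split by block. Replicate 1, the library that resembled isoprenaline at 1 h, was at 5.65 in the first block and 3.61 in the second, while replicates 2 and 3 were at 4.73 and 4.15 in the first and 5.73 and 4.76 in the second. The high values of Dapma7bEVm007125t1, Dapma7bEVm015333t1 and Dapma7bEVm009925t1 in that library belong to the first block. Whether that library carries the treatment and hour of its label was not tested, and no sample was moved or renamed.

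**Figure D5:**
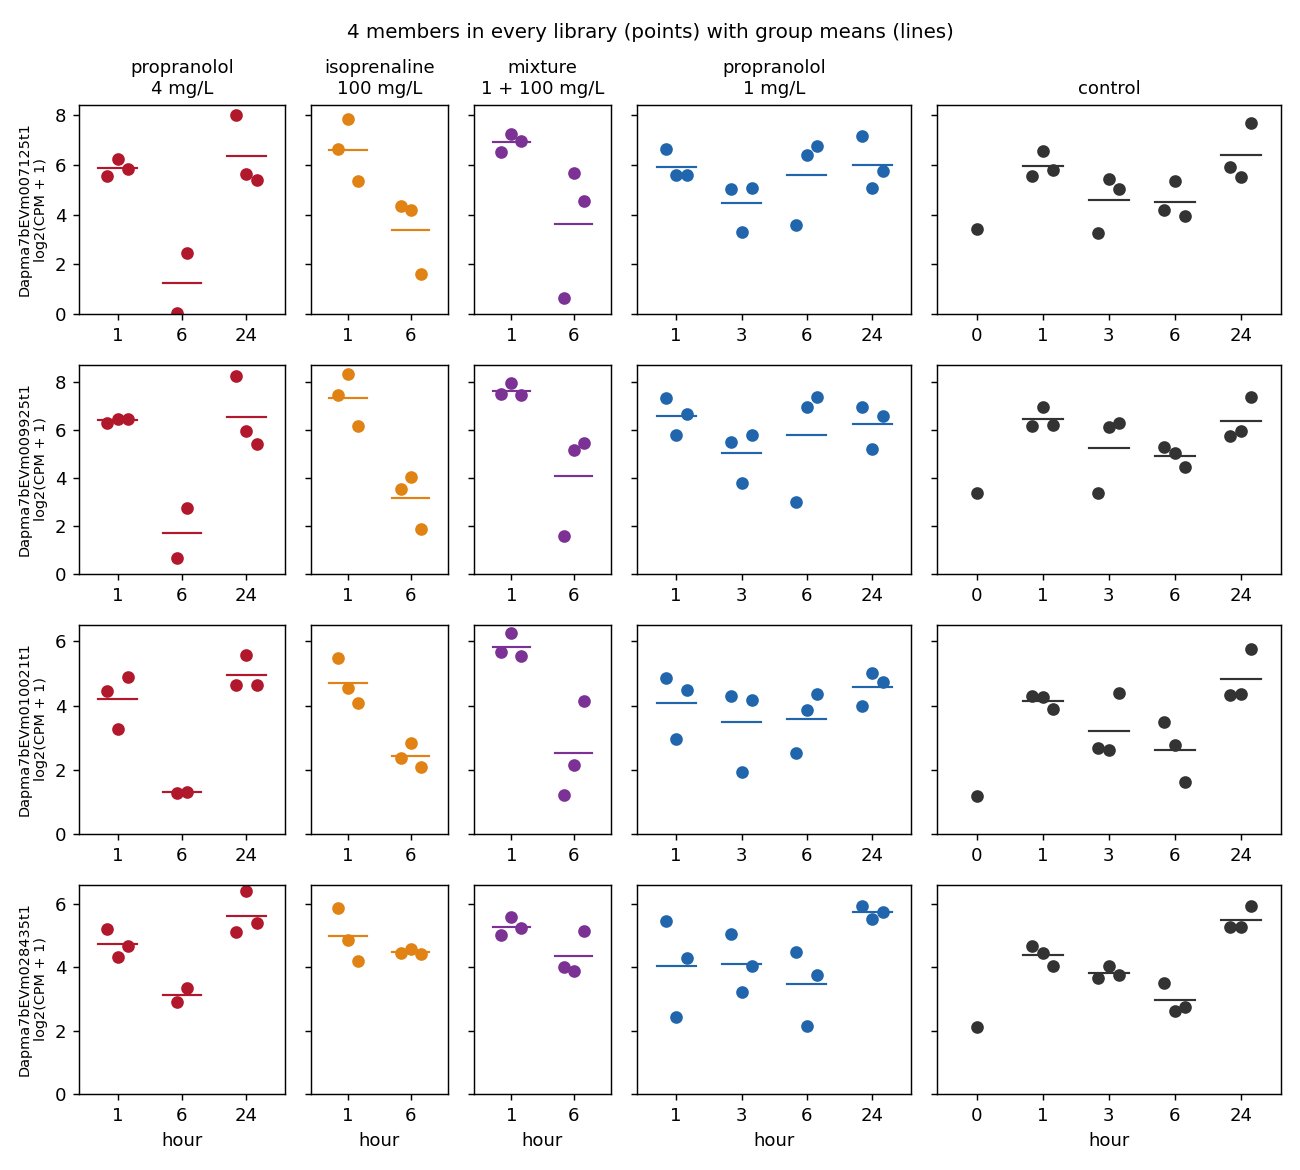
Log2(CPM + 1) of 4 members in every library (points) with group means (lines), by exposure and hour. Dapma7bEVm007125t1 and Dapma7bEVm009925t1 (first block) drop at 6 h of propranolol 4 mg/L and vary widely between libraries of a group; Dapma7bEVm010021t1 (second block) is at 1.44 and 1.51 CPM there, and Dapma7bEVm028435t1 (second block) is highest at 24 h.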

How the data were processed

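The authors deposited a table of CPM values per ID and library, in which each column sums to 1000000. Trimming with Trim Galore 0.3.2 and the tools Bowtie2 2.1.0, edgeR and HTSeq are named in the submitters' processing notes. For the genome build, and likewise the annotation, the sources used here give nothing. All 862155 deposited CPM values were whole multiples of 1 read within 0.01 read (100%), so read counts were recovered. Libraries were grouped by title, with all 45 placed in 16 groups. A floor of 3 reads stands for 0.0686 to 0.222 CPM, and intervals and floors cover counting error only.

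Comparisons were tested with limma 3.58.1 (trend and robust, R 4.3.3) on log2(CPM + 1), a scale that understates changes of low IDs, with all 16 group means and 29 residual degrees of freedom. Control libraries enter this fit only through the shared spread. P-values were adjusted by Benjamini-Hochberg over 19159 IDs within each of 13 comparisons, and a call is an adjusted p under 0.05. Alternatives were a pseudocount of 0.25, a mean of at least 5 CPM, no filter, only the groups compared, scaling by the median log ratio, the replicate number as a block, edgeR 4.0.16 (quasi-likelihood, TMM) on the recovered reads, and each library left out in turn. Leaving out libraries that stood apart, also for the correlations and blocks, and 6 h against 1 h alone were added after seeing the data. The scripts were tested on simulated data.

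The members, comparisons and lists were chosen with earlier results of these data known. IDs named were the 2 highest scores and, for each comparison, at most 2 falls and 2 rises of largest change among calls without overlap between groups; in a comparison with 5 or fewer calls all were named, after their values were seen, with their values in other comparisons. Same-numbered libraries deviated from their group means together in every pair (r of 0.445 to 0.816) for 6 h against 1 h of propranolol 1 mg/L, the only comparison of 3 pairs for which this held; the labels do not say that numbers pair libraries. A replicate 3 of 6 h under propranolol 4 mg/L was not analysed here.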

Additional observations from a re-analysis of the deposited data

How the results depend on the processing

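The counts of members called depended on the setting more than their direction did. Of 202 alternative medians over the 13 comparisons, 2 changed sign, both for 6 h against 1 h of propranolol 1 mg/L: 0.17 without 1 h replicate 1 and 0.34 without 6 h replicate 1, with a range of -0.42 to 0.34 over its 6 fits with a library left out. For 6 h against 1 and 24 h of propranolol 4 mg/L, limma called 37 members; the count was 0 with only the groups compared, 21 with median scaling, 1 with edgeR, 4 for 6 h against 1 h alone, 70 without the 2 libraries that stood apart, and 0 to 75 with a library left out. For 6 h against 1 h of the mixture, 5 became 10 among IDs with a mean of at least 5 CPM, 0 with only the groups compared, 8 with median scaling, 0 with edgeR and 0 to 23 with a library left out. For propranolol 4 against 1 mg/L at 6 h, 27 became 0 with only the groups compared, 17 with median scaling, 6 with edgeR and 0 to 58 with a library left out. For 24 h against 6 h of propranolol 1 mg/L, 2 became 0 with only the groups compared, 1 with edgeR and 0 to 1 with a library left out. With a library left out there were also 0 to 7 calls for isoprenaline and 0 to 2 for the mixture against propranolol 1 mg/L at 6 h, 0 to 4 for the difference between the lows of propranolol 4 and 1 mg/L, and 105 to 145 members kept by the rule. The cause was not tested. With the replicate number as a block, that is, in a paired fit, the counts were 30 for propranolol 4 mg/L, 7 for the mixture and 25 for 4 against 1 mg/L, and no count moved by over 1.5 times; of the calls named, that of Dapma7bEVm027692t1 under propranolol 4 mg/L was lost (limma adjusted p 0.0536). With 2 or 3 libraries a group and a median SE of 0.64 for a member's log2 change between 2 groups of 3, most single changes were not detectable.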
